A study of Homo sapiens with 64 samples.

Results

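The genes of cholesterol and fatty acid synthesis were measured on 64 arrays of BEAS-2B, an immortalised line of human bronchial epithelium. The set was chosen by name: 33 listed genes, of which 30 could be measured, on 65 probe sets, out of 19775 genes and 54613 probe sets in all. Every probe set whose platform annotation named 1 of these genes and no other was taken, over all 16 groups. FDFT1 was unnamed here, and CYP51A1 and FADS1 stood only on 5 probe sets that named a further gene, so these 3 were not used. The measured members were 16 sterol enzymes (7 of the mevalonate steps and 9 from squalene to cholesterol), 5 regulators, the sterol transporter STARD4 and 8 genes of the fatty acid branch.

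All cells came from 1 line and were grown in serum-free keratinocyte medium with epidermal growth factor, bovine pituitary extract and antibiotics, then without a named supplement for the last day. At confluence they received vehicle, whose composition the labels do not give, indacaterol (10 nM), GSK 256066 (10 nM) or both at 10 nM each. Each of the 4 treatments was sampled after 1, 2, 6 and 18 h, with 4 replicates per group. Indacaterol is a long-acting beta-adrenoceptor agonist that raises cyclic AMP, and GSK 256066 inhibits phosphodiesterase 4, which breaks cyclic AMP down. Nothing in the labels says that replicates were separate cultures, so p-values measure the spread between these samples, which may be technical.

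Cells build cholesterol from acetyl-CoA through mevalonate, farnesyl diphosphate, squalene and lanosterol, and build fatty acids from the same precursor through malonyl-CoA. Transcription of both branches is driven by the sterol regulatory element binding proteins encoded by SREBF1 and SREBF2. SCAP escorts these proteins to the Golgi for cleavage when sterols are scarce, and INSIG1 and INSIG2 hold them back in the endoplasmic reticulum when sterols are plentiful.

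Signals are probe-set intensities on the linear scale as deposited. Differences are on the log2(signal + 16) scale, with the standard error (SE) of a limma model over all 64 arrays, and a member was called at an adjusted p under 0.05 (Benjamini-Hochberg over all 19775 genes). Where a gene had several probe sets, the brightest was used. Array medians ran from 101.2 to 127.4. The members were bright: mean signals ran from 1047 for SREBF1 to 12788 for HMGCS1. The line expressed the epithelial keratins KRT8 (3048 to 5608 outside replicate 3) and KRT18 (5118 to 9351) together with the mesenchymal marker VIM (9574 to 12138). Outside replicate 3, a further epithelial keratin, KRT19, was at most 115.8, EPCAM at most 141.3 and CDH1 at most 439.6. Inside it KRT19 was 2287 to 4407, and EPCAM and CDH1 reached 248.8 and 1432. The 16 arrays of replicate 3 stood apart. The summed signal of the basal keratins KRT5 and KRT14 was 295978 to 452134 there and 130.5 to 294.7 on the other 48 arrays. No member separated replicate 3 from the rest without overlap, but SREBF1 averaged 1456 there and 910.6 elsewhere. The part of that difference between arrays in the results was not tested. For each comparison of treatments at the same time in which a member was called, the main count is therefore also given without replicate 3. Most other counts are not given without it.

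The promoters of the 5 sterol enzymes that fell after 6 h with both drugs, and of INSIG2, which rose after 2 h, are shown because these are 6 of the 7 genes called without a replicate block (LPIN1, the other, has 3 windows and is not shown). Each run is the 250 bases before the RefSeq start (GRCh38.p14), 5′ to 3′ on the gene's strand, and capitals mark CCAAT on either strand (ATTGG on the other), the letters bound by NF-Y, a known partner of the sterol regulatory element binding proteins.
MVK (chr12:109573544-109573793, plus strand): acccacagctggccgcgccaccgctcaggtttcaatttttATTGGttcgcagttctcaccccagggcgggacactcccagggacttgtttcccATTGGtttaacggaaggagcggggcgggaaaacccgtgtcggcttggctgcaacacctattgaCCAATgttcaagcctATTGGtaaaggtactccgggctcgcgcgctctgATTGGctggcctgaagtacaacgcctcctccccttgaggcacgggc
MVD (chr16:88663092-88663341, minus strand): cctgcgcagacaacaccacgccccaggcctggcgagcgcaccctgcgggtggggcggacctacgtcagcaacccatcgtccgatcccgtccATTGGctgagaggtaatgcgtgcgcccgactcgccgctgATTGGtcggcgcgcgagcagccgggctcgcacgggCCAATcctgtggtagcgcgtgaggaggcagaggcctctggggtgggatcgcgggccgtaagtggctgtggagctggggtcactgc
LSS (chr21:46228775-46229024, minus strand): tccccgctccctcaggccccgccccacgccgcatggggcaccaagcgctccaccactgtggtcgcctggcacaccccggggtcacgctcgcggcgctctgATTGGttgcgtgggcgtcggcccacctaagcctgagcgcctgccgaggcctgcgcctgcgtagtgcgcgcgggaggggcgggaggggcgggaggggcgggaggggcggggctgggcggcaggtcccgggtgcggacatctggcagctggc
NSDHL (chrX:152830813-152831062, plus strand): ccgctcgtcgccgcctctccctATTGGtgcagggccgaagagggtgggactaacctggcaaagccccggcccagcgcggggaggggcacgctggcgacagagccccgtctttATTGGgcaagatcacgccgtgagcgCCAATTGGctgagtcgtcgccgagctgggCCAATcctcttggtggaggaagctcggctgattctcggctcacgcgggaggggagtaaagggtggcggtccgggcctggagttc
HSD17B7 (chr1:162790452-162790701, plus strand): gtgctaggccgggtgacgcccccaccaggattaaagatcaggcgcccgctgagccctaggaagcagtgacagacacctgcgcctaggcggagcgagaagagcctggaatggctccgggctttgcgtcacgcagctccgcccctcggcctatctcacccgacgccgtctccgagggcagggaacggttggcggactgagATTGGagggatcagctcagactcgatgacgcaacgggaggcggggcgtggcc
INSIG2 (chr2:118088221-118088470, plus strand): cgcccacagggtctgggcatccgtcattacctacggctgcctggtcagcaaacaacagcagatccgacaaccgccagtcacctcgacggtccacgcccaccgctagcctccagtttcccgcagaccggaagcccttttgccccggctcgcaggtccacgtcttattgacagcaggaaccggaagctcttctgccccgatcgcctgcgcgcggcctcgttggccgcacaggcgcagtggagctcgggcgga
MVK and NSDHL held 5 matches each, MVD 3, LSS 1 and HSD17B7 1 before the start, and INSIG2 none. All 5 enzymes called at 6 h held CCAAT in the window that runs on to 50 bases after the start, and neither INSIG2 nor LPIN1, the genes called at 2 h, held it in any of their RefSeq windows (2 and 3). Sterol enzymes not called at 6 h held it too, among them IDI1 (5 matches over 3 windows), MSMO1 (4), FDPS (3) and EBP (3), while PMVK held none. This is a description: 21 of the 29 listed genes matched in the RefSeq table held CCAAT (72.4%), against 34.6% of 35116 promoters. These shares differ in unit. A listed gene counted if any of its windows held CCAAT, while all promoters were counted window by window. Genes with several windows thus had more chances to count.

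Other exact-letter motifs were counted on both strands in the same 300-base windows. Shares were again per gene for members, over any of their windows, and per window for all promoters. GGGCGG, the core bound by SP1, was in 28 of 29 members (96.6%) and 45% of all promoters. TCACNCCAC, a core of the sterol regulatory element, was found once, in SREBF2 (3.45% against 1.13%), as TCACCCCAC at position -133 from the start. CACGTG, an E-box, was in 4 members, LSS, SC5D, INSIG1 and SCAP (13.8% against 7.26%). For the cyclic AMP response element the full letters TGACGTCA were in FADS1 alone (3.45% against 1.85%), and the shorter TGACG, which the full letters contain, was in 14 members (48.3% against 24.6%). MVD, LSS, HSD17B7 and INSIG2 were among those 14, while MVK, NSDHL and LPIN1 were not. ACAT2, FDFT1, SQLE and FASN were not matched.

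After 2 h of indacaterol, alone or with GSK 256066, INSIG2 and LPIN1 rose, by 33.4% to 38.3% in linear terms. After 6 h sterol enzymes were lower, led by MVK, MVD, LSS and NSDHL, and at 18 h no member was called against vehicle. With GSK 256066 alone no member was called at any time.

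**Figure D1:**
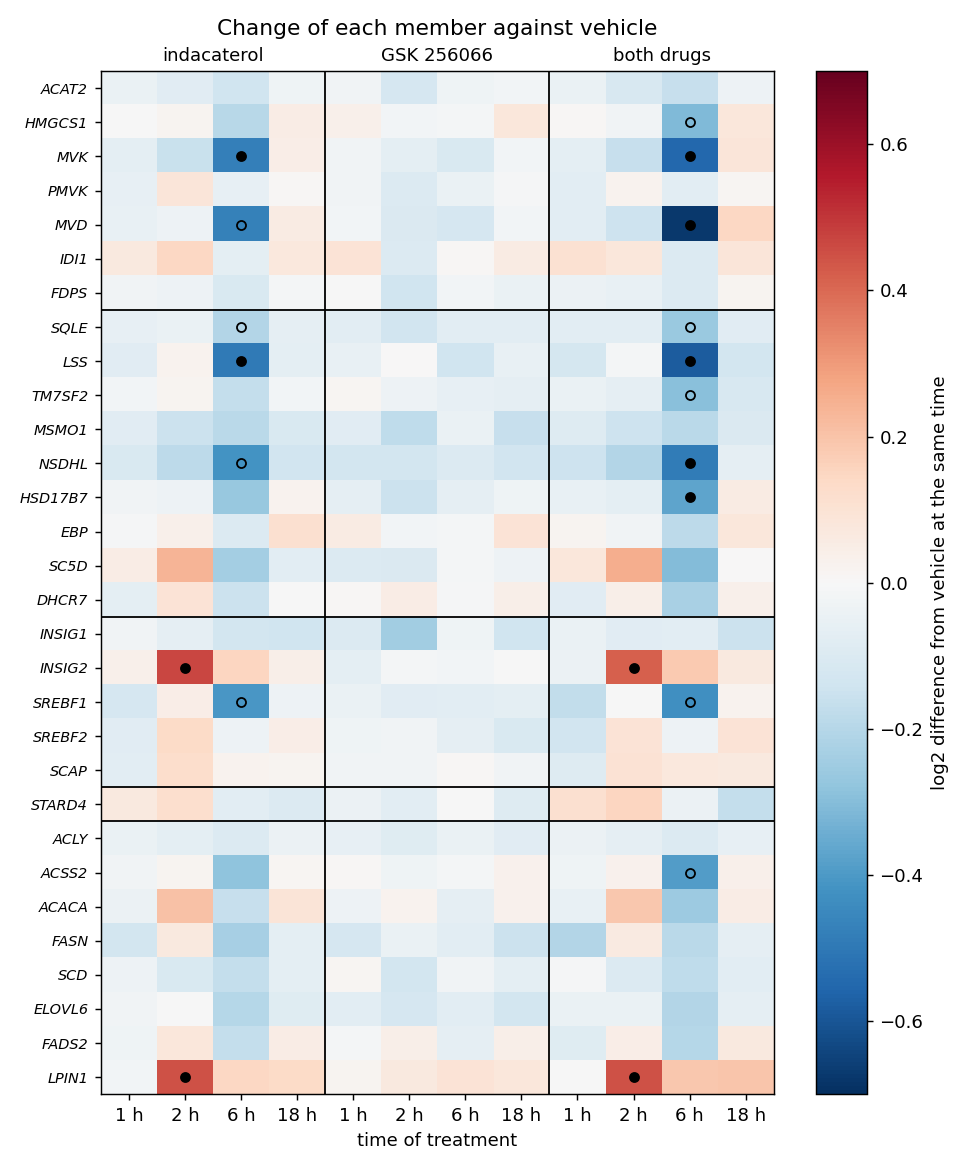
Log2 difference from vehicle at the same time for the 30 members (rows, in the order mevalonate steps, squalene to cholesterol, regulators, STARD4, fatty acid branch), for indacaterol, GSK 256066 and both drugs at 1, 2, 6 and 18 h (columns). Filled circles mark adjusted p under 0.05, open circles the same only with replicate number as a block (limma); filled circles stand at 2 h on INSIG2 and LPIN1 and at 6 h on sterol enzymes, with none under GSK 256066.

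After 1 h the limma test called 0 of 30 members with indacaterol (0.212% of all genes were called) and 0 with both drugs (0.283%), and none had an unadjusted p under 0.05 in either. Differences lay between -0.13 and 0.07 with indacaterol and between -0.20 and 0.11 with both drugs. The 95% intervals, taken over all members and so set by the most variable ones, reached from -0.64 to 0.47 and from -0.69 to 0.48.

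INSIG2, one of the proteins that retain SCAP in the endoplasmic reticulum, rose after 2 h. Its signal with vehicle was 1114, 1196, 1067 and 1279 in replicates 1 to 4. With indacaterol it was 1779, 1752, 1415 and 1533, with both drugs 1756, 1454, 1395 and 1638, and with GSK 256066 alone 1322, 1082, 961.6 and 1270. All 8 arrays with indacaterol, alone or combined, lay above all 8 without it. The log2 rise was 0.47 (SE 0.11, n = 4 per group, adjusted p = 0.00772) with indacaterol and 0.42 (SE 0.11, adjusted p = 0.0304) with both drugs, and both drugs exceeded GSK 256066 alone by 0.43 (adjusted p = 0.0261). At 6 h the differences had shrunk to 0.15 and 0.18 with overlapping groups, and neither was called. At 1 h vehicle ran from 1180 to 1286 and indacaterol from 1121 to 1413, overlapping throughout.

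LPIN1 encodes lipin 1, a phosphatidate phosphatase of glycerolipid synthesis that also acts as a transcriptional coregulator. After 2 h its signal was 3086, 3674, 3770 and 4164 with vehicle and 3765, 3363, 4058 and 4223 with GSK 256066. With indacaterol it was 4651, 5033, 4747 and 5531, and with both drugs 4493, 5120, 4962 and 5376. The lowest array with indacaterol, at 4493, stood above the highest without it, at 4223. The rise was 0.45 (SE 0.095) for indacaterol and for both drugs, with adjusted p of 0.00365 and 0.00392, and 0.37 for both drugs against GSK 256066 (adjusted p = 0.0319). All 3 LPIN1 probe sets were called in each comparison with vehicle in the fit over all probe sets, of which 0.74% and 0.615% were called higher. The dimmest of them, with a mean signal of 1001, showed the greatest rise, 0.59 with indacaterol and 0.53 with both drugs. LPIN1 remained 0.15 and 0.19 above vehicle at 6 h, and 0.20 above it at 18 h with both drugs, none of them called.

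**Figure D2:**
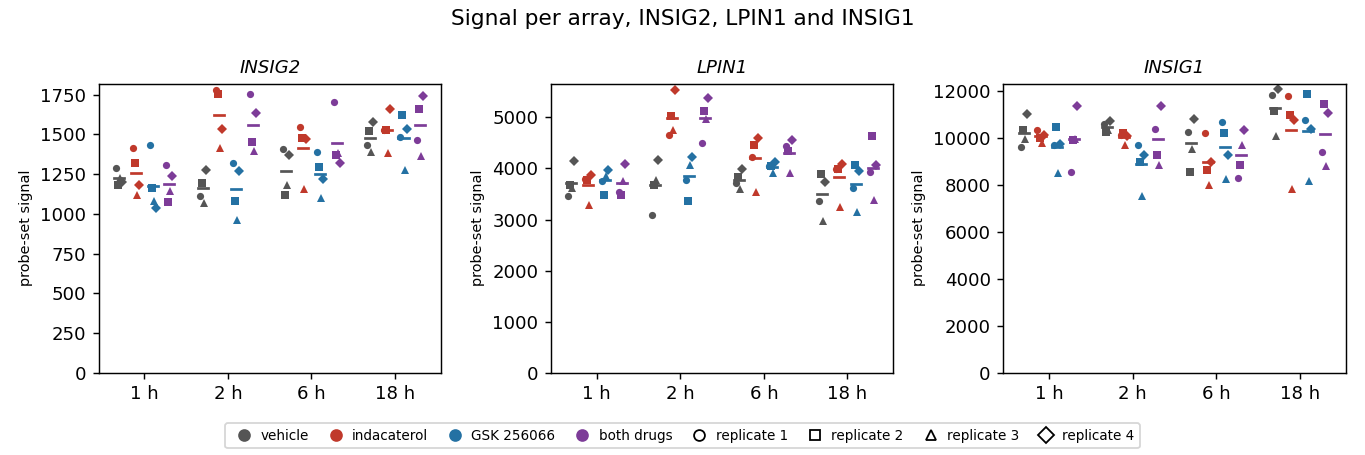
Probe-set signal (linear axis from 0) of INSIG2, LPIN1 and INSIG1 on each array by time, with colour for treatment, marker shape for replicate number and a bar at each group mean. At 2 h the arrays with indacaterol stand above those without it for INSIG2 (1395 to 1779 against 961.6 to 1322) and LPIN1 (4493 to 5531 against 3086 to 4223), while those of INSIG1 do not stand apart in that way.

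These were the only members called at 2 h: 2 of 30 rose with indacaterol, where 0.986% of all genes rose, 2 with both drugs (0.86%) and 2 with both drugs against GSK 256066 (0.85%). No member fell. These calls rest on few arrays. With indacaterol 0 members were called without all arrays of replicate 1 or of replicate 2. Leaving out single arrays left INSIG2 alone without vehicle replicate 1, and LPIN1 alone without vehicle replicate 3 or indacaterol replicate 1 or 2. With both drugs 0 were called without vehicle replicate 1, without all of replicate 1 or without all of replicate 2. LPIN1 alone was called there without all of replicate 4, without vehicle replicate 2 or 3, or without replicate 1 or 4 of both drugs. Both genes stayed called without all arrays of replicate 3, in either comparison with vehicle. Against GSK 256066 the count was 0 without all of replicate 1, 2 or 4, without GSK 256066 replicate 2 or without replicate 4 of both drugs. It was 1 without all of replicate 3, and 1 without GSK 256066 replicate 1 (INSIG2) or 3 (LPIN1) or replicate 1 (LPIN1), 2 (INSIG2) or 3 (INSIG2) of both drugs. Fitted on the compared groups alone, none of these 3 comparisons called a member.

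Among the other regulators, SREBF2, SCAP and SREBF1 were not called at 2 h. SREBF2, the main driver of sterol synthesis genes, had 1294, 1471, 1782 and 1465 with vehicle and 1709, 1637, 1736 and 1500 with indacaterol, overlapping groups that differed by 0.14 (95% interval -0.06 to 0.33). SCAP differed by 0.12 (-0.07 to 0.31). INSIG1, itself a target of the sterol regulatory element binding proteins, had 10615, 10258, 10346 and 10712 with vehicle and 10120, 10231, 9720 and 10084 with indacaterol. These groups did not overlap, yet the difference was only -0.06 (adjusted p = 0.988).

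After 6 h of indacaterol 2 of 30 members fell, MVK and LSS, where 0.0455% of all genes fell. With both drugs 5 of 30 fell, MVK, MVD, LSS, NSDHL and HSD17B7, where 0.263% of all genes fell. All 16 sterol enzymes had negative differences in both comparisons, with medians of -0.19 (range -0.50 to -0.06) and -0.27 (-0.68 to -0.07), against medians over all genes of -0.01 and 0.00. Groups did not overlap for 7 members with indacaterol and for 9 with both drugs, all of them sterol enzymes and all lower, against 1.43% and 2.98% of all genes lower without overlap.

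MVK encodes mevalonate kinase, which phosphorylates mevalonate. At 6 h its signal was 2009, 2064, 2423 and 2087 with vehicle, 1608, 1402, 1706 and 1420 with indacaterol, 1795, 1875, 2188 and 2100 with GSK 256066, and 1428, 1453, 1500 and 1455 with both drugs. The highest array with indacaterol, at 1706, lay below the lowest without it, at 1795. The fall was 0.48 on the log2 scale (SE 0.083, adjusted p = 0.000545) with indacaterol, 0.55 (adjusted p = 2.86e-05) with both drugs, and 0.44 (adjusted p = 0.00218) for both drugs against GSK 256066. In linear terms MVK fell by 28.4% with indacaterol and fell by 31.6% with both drugs.

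MVD encodes mevalonate diphosphate decarboxylase, which forms isopentenyl diphosphate. With vehicle its signal was 1668, 1442, 1690 and 1634, with indacaterol 1313, 1057, 1121 and 1126, with GSK 256066 1469, 1445, 1404 and 1594, and with both drugs 1093, 1029, 913.8 and 968.6. The combination gave the lowest values, and neither group with indacaterol overlapped vehicle. On the brightest probe set of each gene MVD showed the greatest fall of any member, 0.68 (SE 0.13, adjusted p = 0.00118) with both drugs, or 37.4% in linear terms. The difference with indacaterol, -0.48, was not called (adjusted p = 0.113), and the fall against GSK 256066 was 0.56 (adjusted p = 0.0234).

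LSS encodes lanosterol synthase, which closes the sterol rings. Its signal was 4513, 4743, 5049 and 5031 with vehicle, 3586, 3082, 3456 and 3565 with indacaterol, 4084, 4451, 4401 and 4628 with GSK 256066, and 3078, 3242, 3227 and 3338 with both drugs. The groups with indacaterol lay below those without it on every array. LSS fell by 0.50 (SE 0.12, adjusted p = 0.0488) with indacaterol and by 0.58 (adjusted p = 0.00407) with both drugs. Both drugs against GSK 256066 gave -0.44 (adjusted p = 0.0961), which was not called.

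NSDHL encodes a sterol dehydrogenase of the demethylation steps after lanosterol. It ran from 2771 to 3290 with vehicle, from 2132 to 2410 with indacaterol and from 1992 to 2315 with both drugs. The fall with both drugs was 0.49 (adjusted p = 0.00895), and the difference with indacaterol was -0.42 (adjusted p = 0.0901). HSD17B7, the ketosteroid reductase of the same steps, ran from 2220 to 2400 with vehicle and from 1744 to 1847 with both drugs, and fell by 0.37 (adjusted p = 0.0475). Its probe set bears the manufacturer's x_at suffix, which marks probes that can bind other transcripts, so its signal may not be its own alone. With indacaterol it ran from 1845 to 2115, below vehicle on each array, and its difference of -0.27 was not called (adjusted p = 0.581).

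SQLE, squalene epoxidase, an oxygen-requiring step ahead of LSS, was 9117, 9042, 9390 and 9697 with vehicle, 8191, 7764, 8054 and 8323 with indacaterol and 7462, 7910, 7596 and 8174 with both drugs. No array with indacaterol reached the vehicle range. The differences, -0.20 and -0.26, were not called (adjusted p = 0.514 and 0.0687). HMGCS1, the synthase that makes HMG-CoA for mevalonate, was 12501, 13242, 11150 and 13806 with vehicle, 11641, 10420, 10622 and 11507 with indacaterol and 10536, 10829, 8665 and 10968 with both drugs. The combination lay below vehicle without overlap, by -0.31 (adjusted p = 0.435). HMGCS1 was the brightest member, and the highest signal of any probe set was 16840 to 18914 on the arrays of replicates 1, 2 and 4, against up to 16052 for HMGCS1. On replicate 3 the highest signals were 265824 to 1081710, and HMGCS1 was 8665 to 12401.

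**Figure D3:**
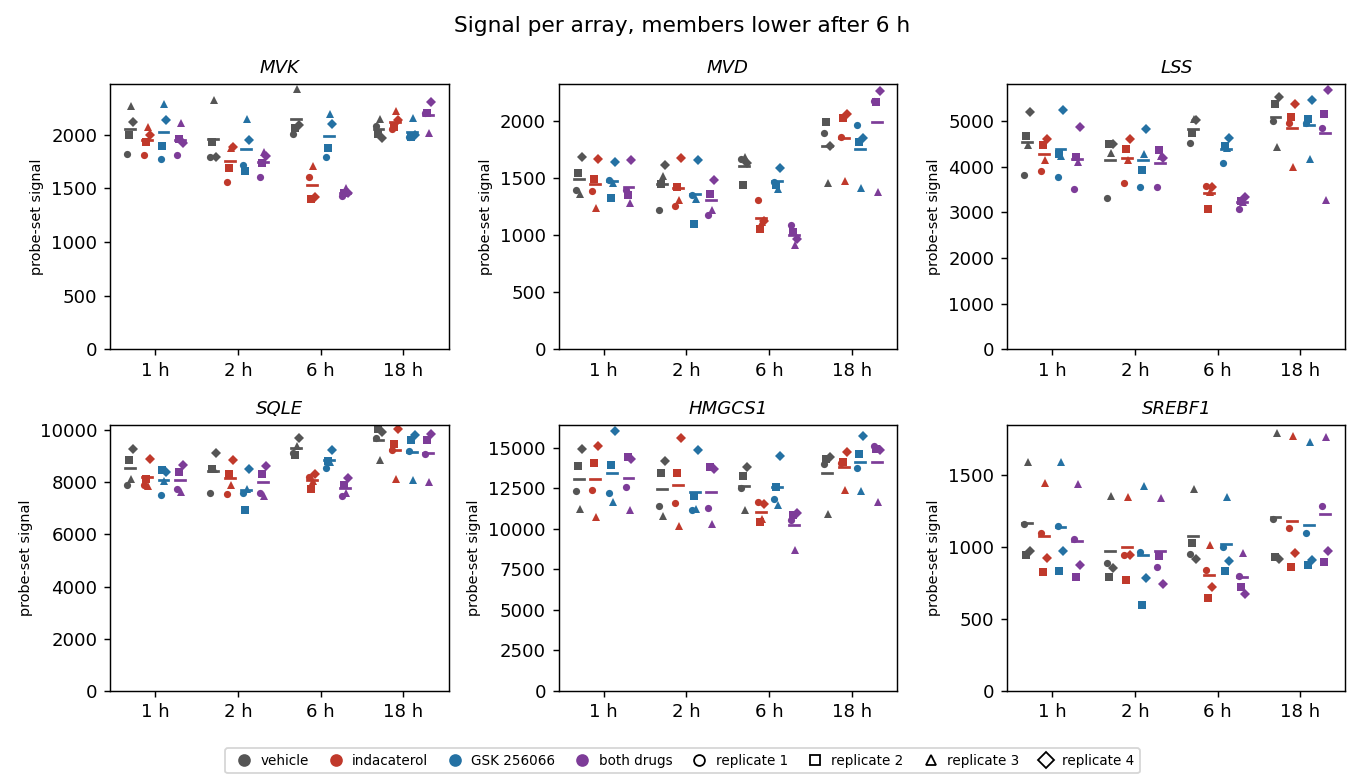
Probe-set signal (linear axis from 0) of MVK, MVD, LSS, SQLE, HMGCS1 and SREBF1 on each array by time, with colour for treatment, marker shape for replicate number and a bar at each group mean. At 6 h MVK with indacaterol or both drugs lies between 1402 and 1706, below all arrays without indacaterol, and the replicate 3 arrays (triangles) of SREBF1 are the highest of their groups.

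Same-numbered arrays deviated together at 6 h, so the fit with replicate number as a block is also given. With that block 6 members fell after indacaterol (0.657% of all genes fell): LSS, MVD, MVK, NSDHL, SQLE and SREBF1. With both drugs 10 fell (2.72%), adding HMGCS1, HSD17B7, TM7SF2 and ACSS2 to these 6. Blocked adjusted p for both drugs were 0.000415 for SQLE, 0.000601 for HMGCS1 and 0.00293 for TM7SF2, the reductase that removes a sterol ring double bond. The other sterol enzymes with non-overlapping groups, MSMO1 and DHCR7, were not called in either fit.

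SREBF1, which drives fatty acid synthesis genes and is itself raised by its own products, differed between replicates more than any other regulator. At 6 h it was 950.9, 1027, 1400 and 912.5 with vehicle, 842, 647.2, 1012 and 718.6 with indacaterol, 1000, 834.9, 1347 and 902.4 with GSK 256066, and 797.3, 720.1, 956 and 674.9 with both drugs. The groups overlapped, but each treated array with indacaterol lay below the vehicle array of its number, in 4 of 4 pairs for either treatment. The differences were -0.41 and -0.43, with adjusted p of 1 and 0.839 without the block and 0.00224 and 0.000563 with it. The second SREBF1 probe set, with a mean signal of 481.8, differed by -0.13 and -0.01 and was not called in either fit. SREBF2 at 6 h was 1496, 1340, 1751 and 1545 with vehicle, 1570, 1431, 1435 and 1516 with indacaterol and 1413, 1380, 1670 and 1508 with both drugs, overlapping groups that differed by -0.04 in each comparison. INSIG1 was 10250, 8572, 9517 and 10821 with vehicle, 10229, 8628, 7997 and 8998 with indacaterol and 8312, 8845, 9703 and 10327 with both drugs. These overlapped too, with differences of -0.13 (95% interval -0.34 to 0.09) and -0.07 (-0.29 to 0.14).

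Both drugs were also set against GSK 256066 alone, whose arrays are not part of the comparison of indacaterol with vehicle. The arrays with both drugs are the same as those compared with vehicle, and this comparison was added after the falls at 6 h were seen. There MVD and MVK fell (0.0809% of all genes fell), and with the block 9 members did (1.16%): HMGCS1, HSD17B7, LSS, MVD, MVK, NSDHL, SQLE, SREBF1 and TM7SF2. All 16 sterol enzymes were lower, with a median of -0.22.

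The 6 h calls depended on single arrays. With indacaterol MVK alone was called when any one of the 8 arrays compared, or all of replicate 1 or 3, was left out, and 0 members without all of replicate 2 or 4. With both drugs 3 members, LSS, MVD and MVK, were called without vehicle replicate 3, without replicate 1 of both drugs, or without all of replicate 1 or 4, and MVD and MVK without all of replicate 2. HSD17B7 was lost without any one of the 8 arrays compared. Without all of replicate 3 the same 5 were called. With the block and without replicate 3, 5 members were called with indacaterol (LSS, MVD, MVK, NSDHL and SREBF1) and 9 with both drugs, where ACACA was called and ACSS2 and TM7SF2 were not. Both drugs against GSK 256066 gave 1 (MVK) without replicate 1, 2 or 4 of GSK 256066, replicate 3 or 4 of both drugs or all of replicate 1, gave 0 without all of replicate 2 or 4, and gave 4 (HSD17B7, MVD, MVK, NSDHL) without all of replicate 3. Fitted on the compared groups alone, 0 were called with indacaterol, 2 (LSS and MVD) with both drugs and 0 against GSK 256066.

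The fatty acid branch had smaller differences than the sterol branch taken as a whole in both 6 h comparisons, a gap that was not tested. At 6 h none of its 8 members was called without the block in either comparison, and the median difference was -0.17 with indacaterol (range -0.28 to 0.15) and -0.19 with both drugs (-0.39 to 0.19). The gap did not run through all sterol enzymes. With indacaterol the median was -0.14 over the 7 mevalonate steps and -0.20 over the 9 enzymes from squalene to cholesterol. With both drugs the mevalonate steps ran from -0.07 for PMVK to -0.68 for MVD. ACSS2, which makes acetyl-CoA from acetate, was 2778, 3098, 3065 and 4488 with vehicle and 2200, 2521, 2230 and 3224 with both drugs. These groups overlapped, but ACSS2 was lower in 4 of 4 same-numbered pairs, and only with the block was its fall of 0.39 called (adjusted p = 0.0285, against 0.869 without). FASN, the fatty acid synthase, ACACA, which makes malonyl-CoA, and SCD, the stearoyl-CoA desaturase, were not called in either fit on their brightest probe sets. LPIN1 was the only member of the branch with a positive difference at 6 h.

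Averaged over the 16 sterol enzymes of each array, same-numbered arrays with indacaterol and vehicle differed at 6 h by -0.15, -0.25, -0.28 and -0.25, a mean of -0.23 (SD 0.06, n = 4). With both drugs they differed by -0.30, -0.25, -0.37 and -0.30, a mean of -0.30 (SD 0.05). The 4 array means with either treatment all lay below the 4 of vehicle. The fatty acid branch differed by -0.15 (SD 0.07) and -0.17 (SD 0.02) and overlapped vehicle, and the regulators by -0.08 (SD 0.09) and -0.06 (SD 0.04). The fatty acid mean includes LPIN1, at 0.15 and 0.19, the only member of that branch with a positive difference at 6 h. Taking the median of the members' signal levels in each array, which falls on members of middle brightness, gave -0.32 and -0.40 for sterol enzymes. It gave -0.06 and -0.05 for the fatty acid branch and turned the sign of the regulators, to 0.05 and 0.05. By contrast, the medians of the members' own differences with indacaterol at 6 h were -0.19 for sterol enzymes and -0.17 for the fatty acid branch. That gap was narrower than the gap between the means. At 2 h sterol enzymes were again lowest and regulators highest, with sterol enzymes at -0.004 and -0.043, the fatty acid branch at 0.08 and 0.07 and the regulators at 0.14 and 0.10, the last 2 holding LPIN1 and INSIG2. These means are descriptions and were not tested.

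**Figure D4:**
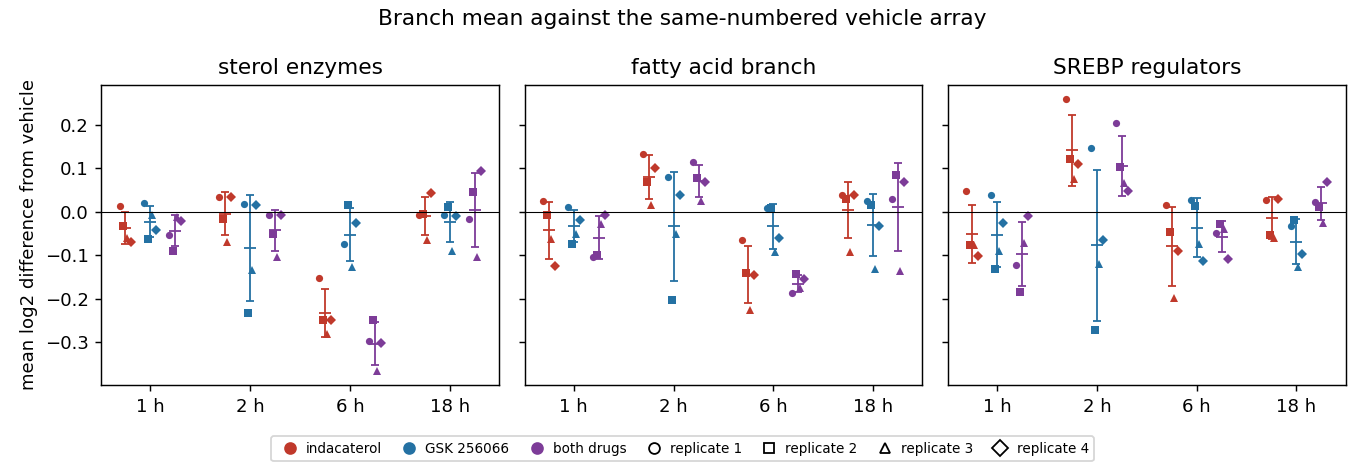
Mean log2 difference of each branch from the vehicle array of the same replicate number (points, 4 per comparison, with the mean as a dash and the SD as a bar) for sterol enzymes (16 genes), fatty acid branch (8) and regulators (5) by time. Sterol enzymes at 6 h lie between -0.15 and -0.37 with indacaterol or both drugs, while GSK 256066 stays between -0.13 and 0.02.

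Probe sets of the same gene, which are not replicates of each other, differed in the size of the falls. Of 65 member probe sets 57 were negative at 6 h with indacaterol and 57 with both drugs. In the fit over all 54613 probe sets 4 were called lower with indacaterol (0.0165% of all probe sets) and 8 with both drugs (0.145%). With the block 11 and 19 were called lower, and the shares of all probe sets rose too, to 0.326% and 1.45%. For MVK the brightest probe set (mean signal 1925) fell by 0.55 with both drugs, the next (1282) by 0.83 and the third (762.2) by 1.01, all called, while the dimmest (135.5) stood at 0.05. SQLE gave -0.26, -0.41, -0.47 and -0.24 from its brightest to its dimmest probe set, of which the probe set at -0.47 (mean signal 3108) was called without the block. NSDHL fell by 0.49 on its brighter and by 0.60 on its dimmer probe set. The 3 LSS probe sets lay closer together, at -0.58, -0.64 and -0.58. With indacaterol the brightest LSS probe set missed the threshold in this fit (adjusted p = 0.0711). SCD gave -0.18 on its brightest probe set (9200), then -0.24 (4228) and -0.31 (3324), and -0.39 on its dimmest (2743). Those at -0.31 and -0.39 were called only with the block.

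**Figure D5:**
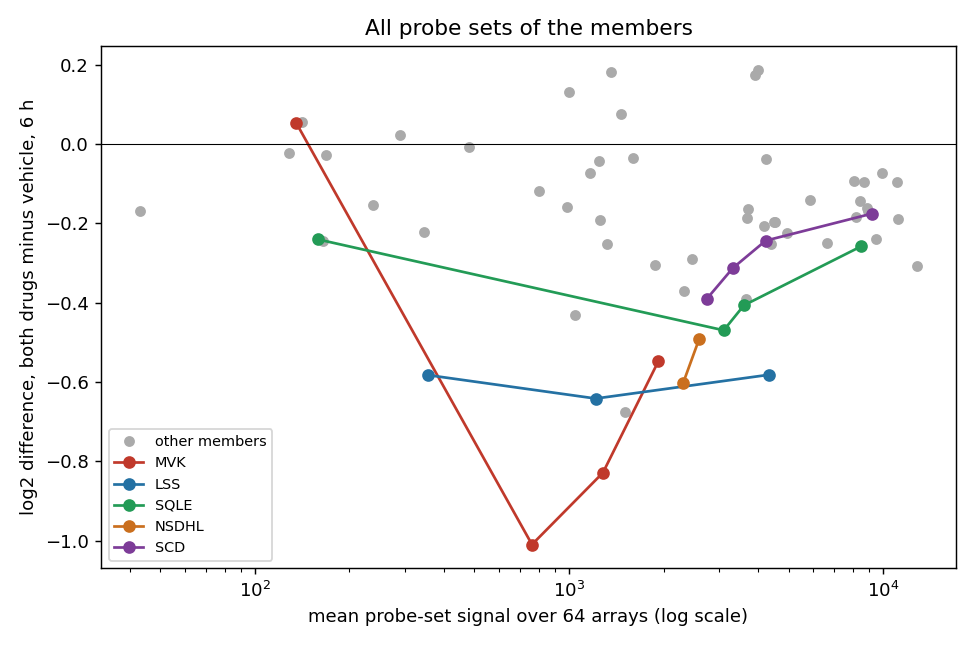
Log2 difference between both drugs and vehicle at 6 h for the 65 member probe sets against their mean signal over 64 arrays (log axis), with the probe sets of MVK, LSS, SQLE, NSDHL and SCD joined by lines in order of signal. For MVK the fall was 0.55 on the brightest probe set and 1.01 on the third brightest, and for SCD the difference was -0.18 on the brightest and -0.39 on the dimmest.

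By 18 h limma called 0 members with indacaterol (0.00506% of all genes called) and 0 with both drugs (0.0354%). With both drugs 1 member, LPIN1, had an unadjusted p under 0.05, and with indacaterol none had. MVK was 2081, 2008, 2146 and 1970 with vehicle and 2197, 2200, 2018 and 2304 with both drugs. MVD was 1895, 1997, 1462 and 1785 with vehicle and 2178, 2171, 1377 and 2263 with both drugs. These groups overlapped, and replicate 3 gave the lowest MVD value in both. For MVK the effect of both drugs differed between the 4 times (moderated F-test, adjusted p = 0.0112), the only member so called (0.344% of all genes). That call was lost without vehicle replicate 3 at 6 h, or without all of replicate 1, 2 or 4, and MVD was called as well without replicate 3 of both drugs at 18 h. After quantile normalization MVD was called in place of MVK. For indacaterol alone 0 members were called (0.268% of all genes), 5 had an unadjusted p under 0.05, and MVK had an adjusted p of 0.0861. MVK was called there without vehicle replicate 3 at 2 h, indacaterol replicate 3 at 6 h or all of replicate 3.

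GSK 256066 alone gave 0 called members at 1, 2, 6 and 18 h by limma, where 0.00506%, 0%, 0% and 0% of all genes were called. The only unadjusted p under 0.05 was that of INSIG1 at 2 h, which had 9696, 8993, 7527 and 9295 against 10258 to 10712 with vehicle, a difference of -0.25 without overlap (adjusted p = 1). At 6 h the 30 differences from vehicle lay between -0.14 and 0.09, and their 95% intervals reached from -0.59 to 0.48. Of these differences 27 were negative, among them those of 15 of 16 sterol enzymes, whose median was -0.047 against -0.008 over all genes. The comparisons of indacaterol and of both drugs at 6 h use the same vehicle arrays, so the count of negative signs is not particular to indacaterol.

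Adding GSK 256066 to indacaterol made no called difference to any member. Both drugs against indacaterol gave 0 calls at each of the 4 times, as over all genes (0%, 0%, 0% and 0%), and no member had an unadjusted p under 0.05. At 6 h 15 of 16 sterol enzymes were lower with both drugs than with indacaterol, by a median of -0.07. The greatest of these differences was that of MVD, -0.20 (95% interval -0.46 to 0.06), lower in 4 of 4 same-numbered pairs. LSS differed by -0.09 (-0.33 to 0.16) and MVK by -0.07 (-0.23 to 0.10). Departure from the sum of the single drugs, tested over the 4 times together, was called for 0 members (0.0101% of all genes), and none had an unadjusted p under 0.05. Both drugs against GSK 256066 gave 0 calls at 1 h (0.142%) and at 18 h (0%), with 1 unadjusted p under 0.05 at 18 h, for SREBF2.

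Members also differed over time without drug. With vehicle alone limma called 0 members at 2 h (0.192% of all genes), 6 h (1.21%) and 18 h (1.58%) against 1 h, with 1, 0 and 6 unadjusted p under 0.05. With the replicate block 9 members were higher at 18 h than at 1 h (3.25% of all genes were higher): ACAT2, ACSS2, ELOVL6, FDPS, HSD17B7, INSIG2, SCD, SQLE and STARD4. STARD4, which carries cholesterol between membranes, went from 4242, 4278, 3446 and 4338 to 5891, 5815, 4319 and 5999, higher in each same-numbered pair though the groups overlapped, a rise of 0.43 (blocked adjusted p = 0.00043). ELOVL6, the elongase of long-chain fatty acids, went from 3558, 3665, 4109 and 4241 to 4835, 5319, 4953 and 5121 without overlap, a rise of 0.38 (blocked adjusted p = 0.0294). Without replicate 3 and without the block HSD17B7 and STARD4 were called, and without vehicle replicate 3 at 18 h HSD17B7 alone. These changes share the vehicle arrays with the drug comparisons.

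Related genes outside the set were counted from 6 lists. Among 9 other targets of the sterol regulatory element binding proteins, 0 were called with indacaterol at 6 h and 1 fell with both drugs, PCYT2, an enzyme of phosphatidylethanolamine synthesis, by 0.42 (adjusted p = 0.00437). Of all genes, 0.0455% fell at 6 h with indacaterol and 0.263% with both drugs. Of 9 genes for processing and turnover of these proteins, SPRING1, needed for SCAP retrieval, rose by 0.40 (adjusted p = 0.00787) after 2 h of indacaterol, and 0 were called at 6 h. Of 5 genes of the liver X receptors and their targets, SMPDL3A, a phosphodiesterase, rose by 0.73 (adjusted p = 0.00843) after 2 h of indacaterol, and by 0.72 and 0.77 with both drugs at 2 and 6 h (0.496% of all genes rose at 6 h with both drugs). At 2 h 0.986% of all genes rose with indacaterol and 0.86% with both drugs. Of 10 genes of sterol transport and storage, GRAMD1B, which moves cholesterol from the plasma membrane, rose by 0.92 (adjusted p = 0.0168) with both drugs at 6 h. None of 9 non-sterol isoprenoid enzymes and none of 12 genes of fatty acid oxidation was called against vehicle at 2 or 6 h without the block. With the block, 2.31% of all genes were called in either direction at 6 h with indacaterol and 5.27% with both drugs. In that fit PCYT2, SPRING1, SMPDL3A and GRAMD1B were called at 6 h with indacaterol, where their differences were -0.34, 0.27, 0.59 and 0.75, and with both drugs. PDK4, a kinase that slows pyruvate entry into the citrate cycle, was called at 6 h in both comparisons, as higher with indacaterol. Over the 12 genes of its list, differences with indacaterol reached 2.25, and 95% intervals without the block ran from -1.16 to 5.20. TMEM97, ME1, MID1IP1, GRAMD1A and ETFDH were called with both drugs alone, a difference between the treatments that was not tested. With both drugs at 2 h the block added SPRING1, MYLIP, VLDLR and PDK4, and 3.45% of all genes were called.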

How the data were processed

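Total RNA of BEAS-2B cells was hybridised, 1 sample per array, to 3′ expression arrays. The authors deposited 1 linear signal intensity per probe set and array, made with PLIER and Transcriptome Analysis Console 4 per the submitters' processing notes; the background method and settings are not given in the sources used here. Of the 54675 features, 62 controls were left out, 41091 carried a single gene symbol, 1801 carried several and 11721 were unnamed. Array quartiles were close as deposited (lower 34.12 to 42.31, upper 441.4 to 603.7), so no further scaling was applied. By mean signal the members' brightest probe sets stood at percentiles 83.37 (SREBF1) to 99.78 (HMGCS1), above these quartiles. The quartiles therefore do not show how well the arrays match at the level of the members, and quantile normalization is among the alternatives. Arrays give no read depth, and 4 per group limit the precision.

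Values were taken as log2(intensity + 16). The brightest probe set stood for each of 19775 genes in limma 3.58.1 (R 4.3.3): 1 mean per group over 64 arrays, 48 residual degrees of freedom, moderated tests, two-sided, Benjamini-Hochberg adjustment over all genes. Code was tested on simulated data. All probe sets were fitted apart in the same way. Groups came from sample titles and treatment labels, and no 2 arrays were identical.

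The labels repeat replicate numbers 1 to 4 in every group without explaining them. A shared number counted as pairing where, for all 4 numbers, the arrays' deviations from the means of their groups had a correlation over 0.1 (lowest 0.509 for indacaterol, 0.313 for both drugs and 0.162 for both drugs against GSK 256066 at 6 h, and 0.256 for vehicle at 18 h against 1 h). This failed for indacaterol and GSK 256066 against vehicle at 2 h (0.0802 and -0.0527), for both drugs at 1 h against vehicle (0.0804), indacaterol (0.0845) and GSK 256066 (-0.165), and for vehicle at 2 h against 1 h (0.0912). Each group mean included replicate 3, whose own shift thus entered the deviations of the other arrays of its group. Correlations for numbers 1, 2 and 4 could therefore arise without pairing, and the rule cannot tell these apart.

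Array values in the comparisons described are given for the 8 members with the smallest adjusted p in a treatment comparison, with or without the block, and for INSIG1, SREBF1 and SREBF2; the remaining members are given by range, count or examples chosen after their values were seen. The members, lists, motifs and tests were chosen with earlier results of these data known. Both drugs against GSK 256066 was added after the falls at 6 h were seen. Alternatives were the pseudocount, a filter on dim genes, quantile normalization, median centring, the mean over probe sets, the block, a fit on the compared groups alone, another prior and leaving out arrays.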

Additional observations from a re-analysis of the deposited data

Results flagged for a closer look

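An array far from the other 3 was sought in 208 groups of 4 arrays, and 11 held one. The groups were those of the 8 members with the smallest adjusted p in a treatment comparison, INSIG1, SREBF2 and the branch means. ACSS2, STARD4 and ELOVL6, whose array values are also given, were not examined in this way. Chance flags about 1 in 20 groups. Of the 11, 8 were arrays of replicate 3, which stands apart in basal keratins across all treatments, and the part of that in these values was not tested. HMGCS1 had 10929 in replicate 3 of vehicle at 18 h, 8665 in replicate 3 of both drugs at 6 h and 11675 in replicate 3 of both drugs at 18 h, each below the other 3 arrays of its group. LPIN1 was low in replicate 3 of indacaterol at 1 h (3275) and at 18 h (3242), and INSIG2 in replicate 3 of indacaterol at 6 h (1157). MVD had 1377 in replicate 3 of both drugs at 18 h, while MVK was high in replicate 3 of GSK 256066 at 18 h (2150). The remaining 3 were LSS in replicate 1 of vehicle at 2 h (3319), SREBF2 in replicate 2 of GSK 256066 at 1 h (1362) and the sterol enzyme mean of replicate 4 of GSK 256066 at 2 h (12.13 on the log2 scale). The lowest vehicle array of LSS at 2 h enters the comparisons with indacaterol and both drugs, in which LSS was not called.

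The effect of both drugs on MVK differed between the 4 times in limma's moderated F-test (adjusted p = 0.0112). The differences from vehicle were -0.07 at 1 h, -0.16 at 2 h, -0.55 at 6 h and 0.09 at 18 h.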

How the results depend on the processing

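The counts of called members changed with the fit more than the differences themselves did, and no single member reversed. Main counts were 2 and 2 at 2 h and 2 and 5 at 6 h for indacaterol and both drugs, 2 at 2 h and 2 at 6 h for both drugs against GSK 256066, 0 for vehicle at 18 h against 1 h, and 0 and 1 for the change of the indacaterol and combined effects between times. With the replicate block indacaterol at 6 h gave 6, both drugs at 6 h 10, both drugs against GSK 256066 at 6 h 9, vehicle at 18 h 9, and the tests between times, which span the unpaired 2 h groups, 3 and 5. The block changed no other count by over 1.5 times. Fitted on the compared groups alone, indacaterol at 2 and 6 h, both drugs at 2 h and both drugs against GSK 256066 at 2 and 6 h gave 0 and both drugs at 6 h gave 2. That fit has fewer arrays. Median centring gave 1 for indacaterol at 6 h, 1 for both drugs at 2 h, 0 for both drugs against GSK 256066 at 2 h and 1 for the indacaterol effect between times. Quantile normalization gave 4 for indacaterol at 6 h, 1 and 4 for both drugs against GSK 256066 at 2 and 6 h, and 3 for vehicle at 18 h. A pseudocount of 1 gave 1 for indacaterol at 6 h, and a pseudocount of 64, leaving out dim genes, and a trended robust prior each gave 1 for vehicle at 18 h. Leaving out arrays gave 0 to 3 for indacaterol and 0 to 2 for both drugs at 2 h, 0 to 5 and 2 to 9 at 6 h, 0 to 2 and 0 to 5 for both drugs against GSK 256066 at 2 and 6 h, 0 to 8 for vehicle at 18 h, and 0 to 2 and 0 to 4 between times, the highest of these except the 2 of both drugs at 2 h and against GSK 256066 at 2 h reached with the block and without replicate 3. The cause of these shifts was not tested. The median of the members' signal levels in each array, in place of their mean, falls on members of middle brightness. It gave -0.324 and -0.404 for sterol enzymes at 6 h with indacaterol and both drugs, and -0.064 and -0.052 for the fatty acid branch. For the regulators it gave 0.047 and 0.051, and 0.220 with indacaterol at 2 h. The mean over probe sets gave -0.015 for the regulators with GSK 256066 at 18 h.

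The precision is limited by 4 arrays per group. The deposited tables were used without detection calls, probe sets of 1 gene differed in the size of their change, and the labels do not say what the replicate numbers mark.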
